A study of Mus musculus with 6 samples.

Results

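Lysosome and V-ATPase genes were followed in mouse liver as a set of 43 named genes, 18 for the vacuolar proton pump (V-ATPase), 24 for other proteins of the lysosome and 1 for the transcription factor TFEB. They were chosen by name, and each was read from probe sets that the platform annotation pairs with that gene alone. Such probe sets were found for 42 of the 43 genes, out of 18194 genes tested, and Atp6v0c was not analysed here. The 42 genes had 97 of the 45037 tested probe sets, and each gene was represented by its brightest probe set, the one with the highest mean over all 6 arrays.

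Liver RNA came from 3 mice of C57BL/6J and 3 mice of B6.C3H-6T, all of them chow-fed females aged 8 weeks, with no mice pooled. B6.C3H-6T is a congenic strain that carries C3H DNA on chromosome 6 in an otherwise C57BL/6J genome, and the series describes it as having low serum IGF-1. Where that segment begins and ends is not stated in the labels, and a gene on chromosome 6 may lie inside or outside it. All values below are deposited log2 expression values, and every difference is the value in B6.C3H-6T less that in C57BL/6J, so that a difference of 1 would be a doubling. Whole liver was measured, so fewer cells of a type and less RNA per cell cannot be told apart.

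The V-ATPase pumps protons into lysosomes and endosomes. Its cytosolic V1 sector splits ATP and drives the turning of the membrane-bound V0 sector, through which protons pass. The acid interior that results is where cathepsins, glycosidases and lipid hydrolases work on material brought in by endocytosis and autophagy, in hepatocytes and, as a large share of their volume, in the resident macrophages of liver (Kupffer cells). TFEB and its relatives switch many of these genes on through a short DNA motif that holds the letters CACGTG.

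The arrays were close to each other, with medians between 6.07 and 6.11. All 9 tested hepatocyte markers were brighter than the median probe set (6.10). Their mean was 13.34, 13.39 and 13.33 in C57BL/6J and 13.46, 13.44 and 13.45 in B6.C3H-6T, without overlap between the strains. The mean correlation of B6.C3H-6T replicate 3 was 0.9964 to arrays of the other strain and 0.9962 to those of its own. C57BL/6J replicate 3 gave the lowest value of its strain for 30 of the 42 genes. That array was also the lowest of its strain over all 11895 genes brighter than the median probe set, with a mean of 8.21 against 8.27 and 8.26.

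None of the 42 genes passed the test over all genes (limma, Benjamini-Hochberg adjusted p under 0.05), a threshold that 0.0715% of all genes passed. At an unadjusted p under 0.05 there were 12 of 42 genes (28.6%), 6 higher and 6 lower in B6.C3H-6T, against 12.2% of all genes (6.36% higher and 5.82% lower). The 12 genes were 8 of the 17 V-ATPase genes and 4 of the 24 other lysosomal genes, while the median differences of these classes were almost alike at -0.04 and -0.04, against 0.02 over all genes. The largest differences of V-ATPase genes went both ways, which a median hides. Among the 39 genes brighter than the median probe set, 10 had an unadjusted p under 0.05 (25.6%, against 14.5% of all genes that bright). Leaving out 1 array at a time gave between 8 and 12 genes, while the share of all genes ran from 7.59% to 13.3%. Without B6.C3H-6T replicate 3 there were 8 of 42 (19.0%) against 13.3% of all genes, and without B6.C3H-6T replicate 2 there were 8 against 7.59%.

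**Figure D1:**
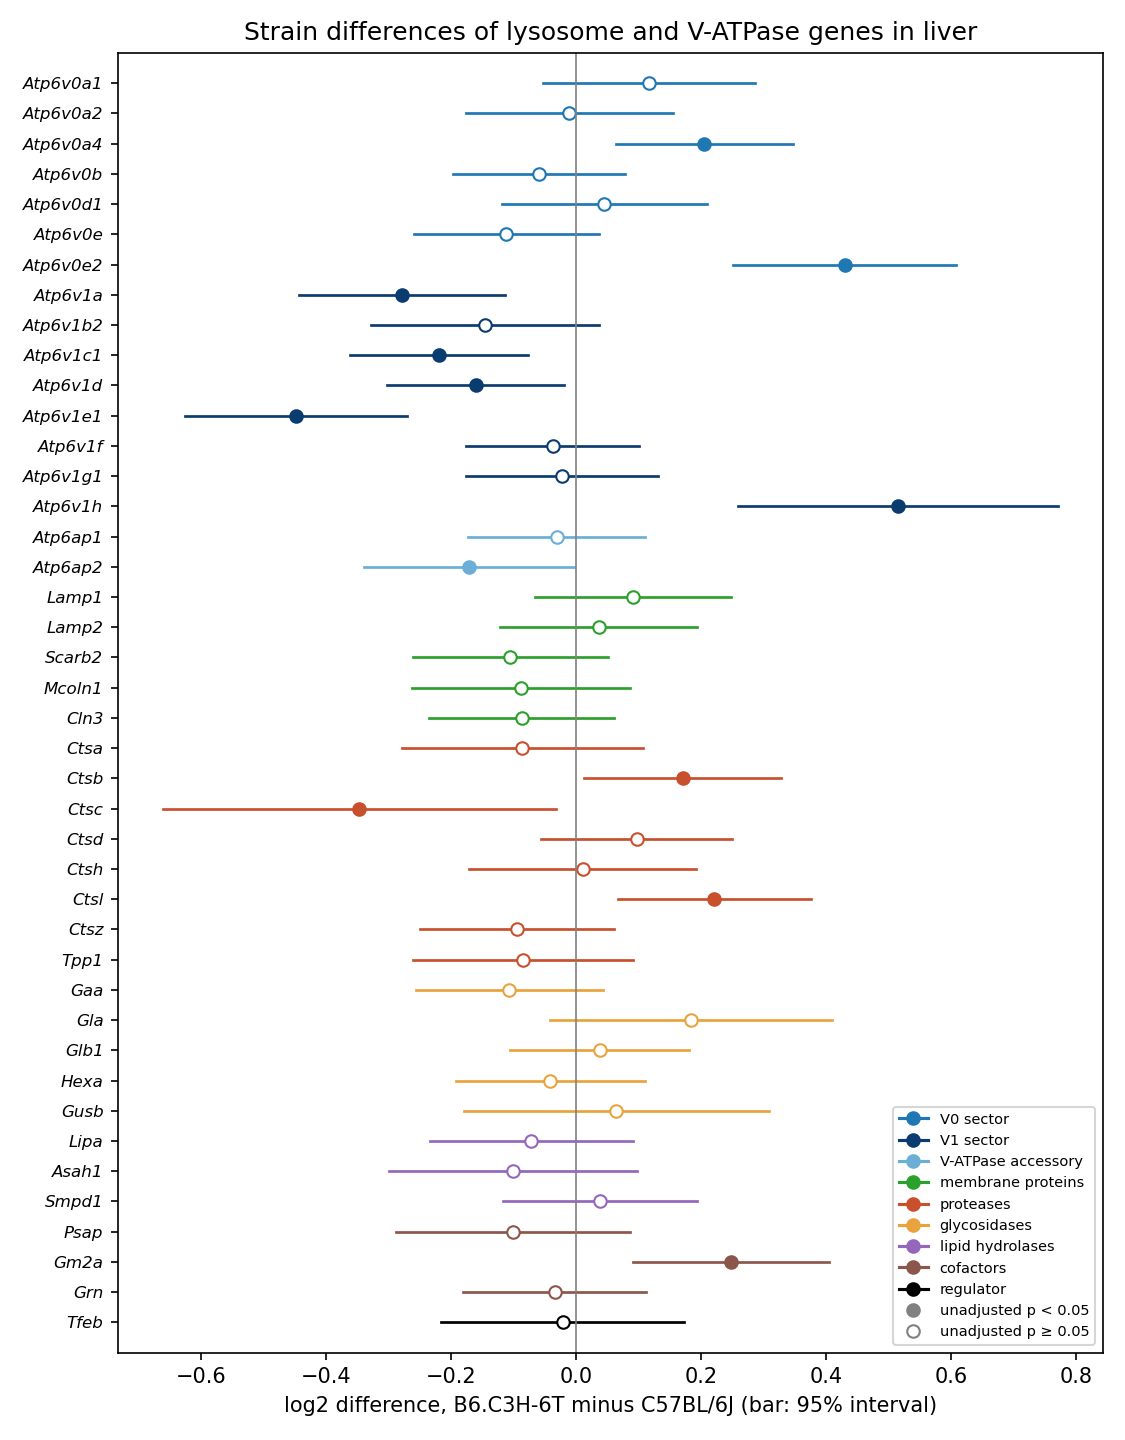
Differences between the strains (horizontal axis, log2, B6.C3H-6T minus C57BL/6J) of the 42 tested genes, coloured by class, with bars for the 95% interval and filled points for an unadjusted p under 0.05. Filled points lie on both sides of 0 in the V-ATPase, from -0.45 for Atp6v1e1 to 0.52 for Atp6v1h, while the 5 membrane proteins lie between -0.11 and 0.09.

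In the V0 sector, the small e subunit is encoded by Atp6v0e, which is expressed widely, and by its paralog Atp6v0e2 on chromosome 6. Atp6v0e2 had values of 5.86, 5.69 and 5.67 in C57BL/6J and of 6.25, 6.06 and 6.19 in B6.C3H-6T. All 3 congenic mice lay above all 3 controls, on a probe set dimmer than the median. The difference was 0.43 ± 0.08 (SE, 3 mice per strain, 1.35-fold; limma unadjusted p = 0.000384, adjusted p = 0.149), the second smallest p of the set. Leaving out 1 array moved it between 0.39 and 0.49. No other probe set was paired with Atp6v0e2 alone, so the value rests on 1 probe set, and whether it reads a sequence difference between the strains was not tested.

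Atp6v0e went the other way in these mice. Its values were 9.86, 10.01 and 9.93 in C57BL/6J and 9.80, 9.84 and 9.83 in B6.C3H-6T, without overlap but by only -0.11 ± 0.07 (unadjusted p = 0.123). Such a lack of overlap was seen for 12 of the 42 genes (28.6%), 6 higher and 6 lower, against 17.8% of all genes (10.3% higher and 7.49% lower). Among the genes brighter than the median probe set it was seen for 10 of 39 (25.6%), against 19.9% of all genes that bright.

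The a subunit lines the proton path and has several isoforms. Atp6v0a4, the isoform known from the acid-secreting cells of kidney, also lies on chromosome 6. It read 4.79, 4.86 and 4.89 in C57BL/6J and 5.05, 5.07 and 5.03 in B6.C3H-6T. The congenic mice were again all higher, in a very narrow range at the dim end of the array, with a difference of 0.21 ± 0.06 (unadjusted p = 0.00927, adjusted p = 0.288). Kidney markers as a list had means per mouse of 5.79 to 5.86 in C57BL/6J and 5.88 to 5.96 in B6.C3H-6T. Of its 9 tested genes 8 were higher, and 4 were dimmer than the median probe set. Over all genes 10204 of 18194 were higher, against 6043 of the 11895 brighter than the median probe set. Dim genes in general were thus more often higher than bright ones. At an unadjusted p under 0.05 there was 1 of the 9 kidney markers, a higher one (11.1%, against 12.2% of all genes). The tested markers of cholangiocytes (5) and adipocytes (4) were all higher as well, and so were 3 of 4 of exocrine pancreas. Of these 3 lists 2, 1 and 2 genes were brighter than the median probe set. The part of kidney-type signal in the Atp6v0a4 value was not tested, nor was whether that value reads a sequence difference between the strains. The more widely used isoform genes differed by 0.12 ± 0.08 (Atp6v0a1) and -0.01 ± 0.07 (Atp6v0a2). All 3 other probe sets of Atp6v0a1 were also higher, by 0.15 to 0.21, and 1 of them had an unadjusted p under 0.05. Atp6v0b, a proteolipid of the rotor ring, differed by -0.06 ± 0.06 and Atp6v0d1, the stalk subunit, by 0.05 ± 0.07. The 2 other probe sets of Atp6v0b went both ways, by -0.16 ± 0.07 and 0.12 ± 0.08.

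In the V1 sector 7 of 8 genes were lower in B6.C3H-6T, 4 of them at an unadjusted p under 0.05, and 1 gene was higher. Over all genes 43.9% were lower (49.2% of those brighter than the median probe set), and 5.82% were lower at that p. Atp6v1e1 encodes a subunit of the peripheral stalks that hold the 2 sectors together, and it lies on chromosome 6. Its values were 10.51, 10.71 and 10.55 in C57BL/6J and 10.24, 10.11 and 10.08 in B6.C3H-6T. The lowest control was well above the highest congenic mouse. The difference of -0.45 ± 0.08 (1.36-fold) had the smallest p of all 42 genes (limma unadjusted p = 0.000271, adjusted p = 0.136), and it ranged from -0.50 to -0.39 when 1 array was left out. A further probe set of the gene was lower too (-0.40 ± 0.11). Its 2 dimmest probe sets were at 0.02 ± 0.07, just brighter than the median probe set, and at -0.04 ± 0.06, dimmer than it. Whether the values of Atp6v1e1 read a sequence difference between the strains was not tested. With the mean of all its probe sets the difference was -0.22.

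Atp6v1h, for the subunit that couples and brakes the ATPase, was the V1 gene that was higher. It read 9.04, 8.88 and 8.83 in C57BL/6J and 9.23, 9.39 and 9.68 in B6.C3H-6T. The groups did not overlap, but the congenic mice were spread widely, with an SD of 0.23 against 0.11 in the controls. The difference was 0.52 ± 0.11 (1.43-fold, the largest of the set; unadjusted p = 0.00132, adjusted p = 0.200). The 2 other probe sets of Atp6v1h were dimmer than the median and differed by 0.09 ± 0.07 and -0.05 ± 0.10. Taking the probe set of median p in place of the brightest gave 0.09, so the value rests on 1 probe set.

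The catalytic A subunit, which holds the ATP-splitting site, is encoded by Atp6v1a. Its values of 9.25, 9.31 and 9.28 in C57BL/6J were tightly grouped, and those in B6.C3H-6T were 9.08, 8.88 and 9.05. All congenic mice were lower, B6.C3H-6T replicate 2 the most, by a mean of -0.28 ± 0.07 (unadjusted p = 0.00408, adjusted p = 0.249). The other probe set of Atp6v1a gave almost the same value, -0.25 ± 0.07. Atp6v1c1, which encodes the subunit at the foot of the peripheral stalks, read 9.21, 9.25 and 9.19 against 8.95, 8.99 and 9.06. It was lower in every congenic mouse, by -0.22 ± 0.06 (unadjusted p = 0.00673), and its 2 other probe sets were at -0.14 ± 0.06 and -0.11 ± 0.08. Atp6v1d, of the central rotor shaft, read 9.70, 9.77 and 9.68 against 9.58, 9.53 and 9.57, again without overlap. It differed by -0.16 ± 0.06 (unadjusted p = 0.0301), and its 2 other probe sets by -0.15 ± 0.07 and -0.26 ± 0.07.

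The other V1 genes were closer to 0. Atp6v1b2, the nucleotide-binding B subunit of most tissues, differed by -0.15 ± 0.08 with overlap between the strains. Atp6v1f, the last of the 4 genes on chromosome 6, read 10.53, 10.58 and 10.51 in C57BL/6J and 10.52, 10.47 and 10.51 in B6.C3H-6T. Its strains overlapped, and its difference of -0.04 ± 0.06 has a 95% interval from -0.18 to 0.10. Atp6v1g1, a partner of the E subunit in the peripheral stalks, differed by -0.02 ± 0.07.

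Of the accessory genes, Atp6ap2, which encodes the (pro)renin receptor, read 10.31, 10.36 and 10.27 in C57BL/6J and 10.27, 10.08 and 10.07 in B6.C3H-6T. The highest congenic mouse reached the lowest control, and the mean difference was -0.17 ± 0.07 (unadjusted p = 0.0474, adjusted p = 0.405). Its 2 other probe sets were lower as well, by -0.24 ± 0.06 and -0.14 ± 0.07. Atp6ap1 was at -0.03 ± 0.06.

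**Figure D2:**
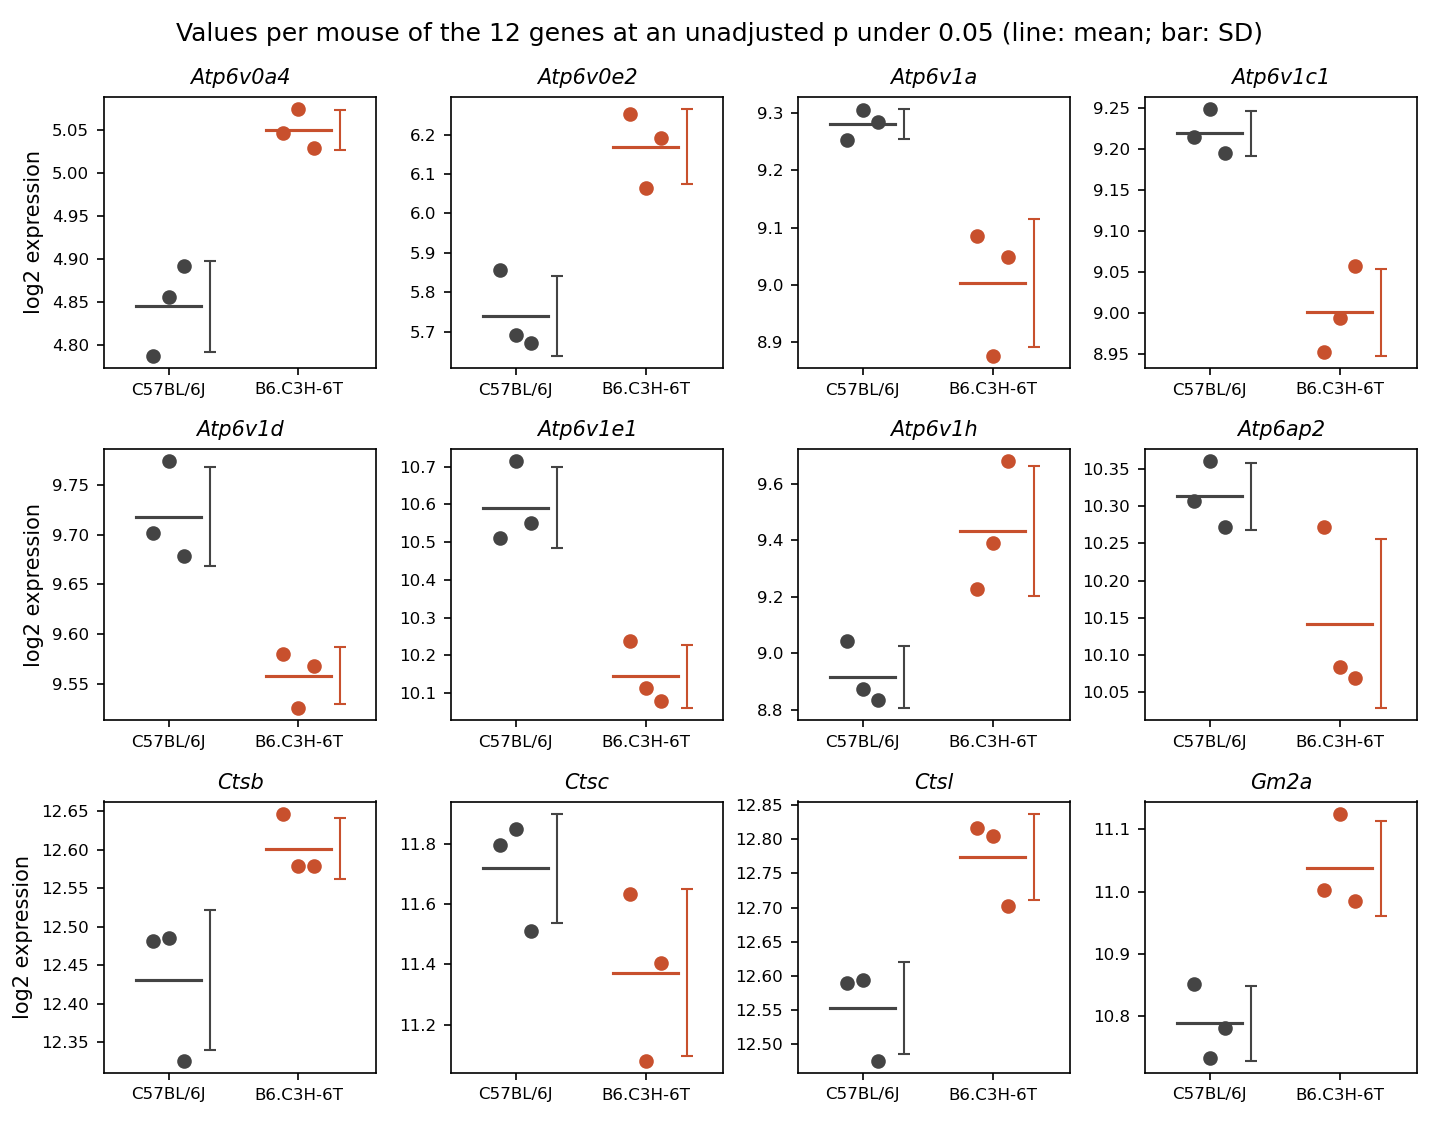
Log2 expression (vertical axes, each on its own scale) of the 12 genes at an unadjusted p under 0.05 in each C57BL/6J mouse (grey) and each B6.C3H-6T mouse (orange), with the strain mean as a line and the SD as a bar. The strains do not overlap in 10 of the 12 panels, while Atp6ap2 and Ctsc overlap.

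As groups, the V0 and V1 genes lay on opposite sides. The mean of the 7 V0 genes was 8.22, 8.27 and 8.17 in the C57BL/6J mice and 8.33, 8.30 and 8.30 in the B6.C3H-6T mice. The mean of the 8 V1 genes was 9.79, 9.81 and 9.73 against 9.68, 9.65 and 9.70. Neither group overlapped between the strains. Without the genes of chromosome 6, however, the V0 difference went from 0.09 to -0.0039 and the V1 difference from -0.10 to -0.05, and both groups then overlapped. The V0 genes left out, Atp6v0e2 and Atp6v0a4, were also the only V0 genes dimmer than the median probe set. Of the 6 V1 genes that remained 5 were lower, with a median of -0.15, and Atp6v1h was the exception. The test of a difference between the sectors would rest on genes chosen with these values known and was not made.

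**Figure D3:**
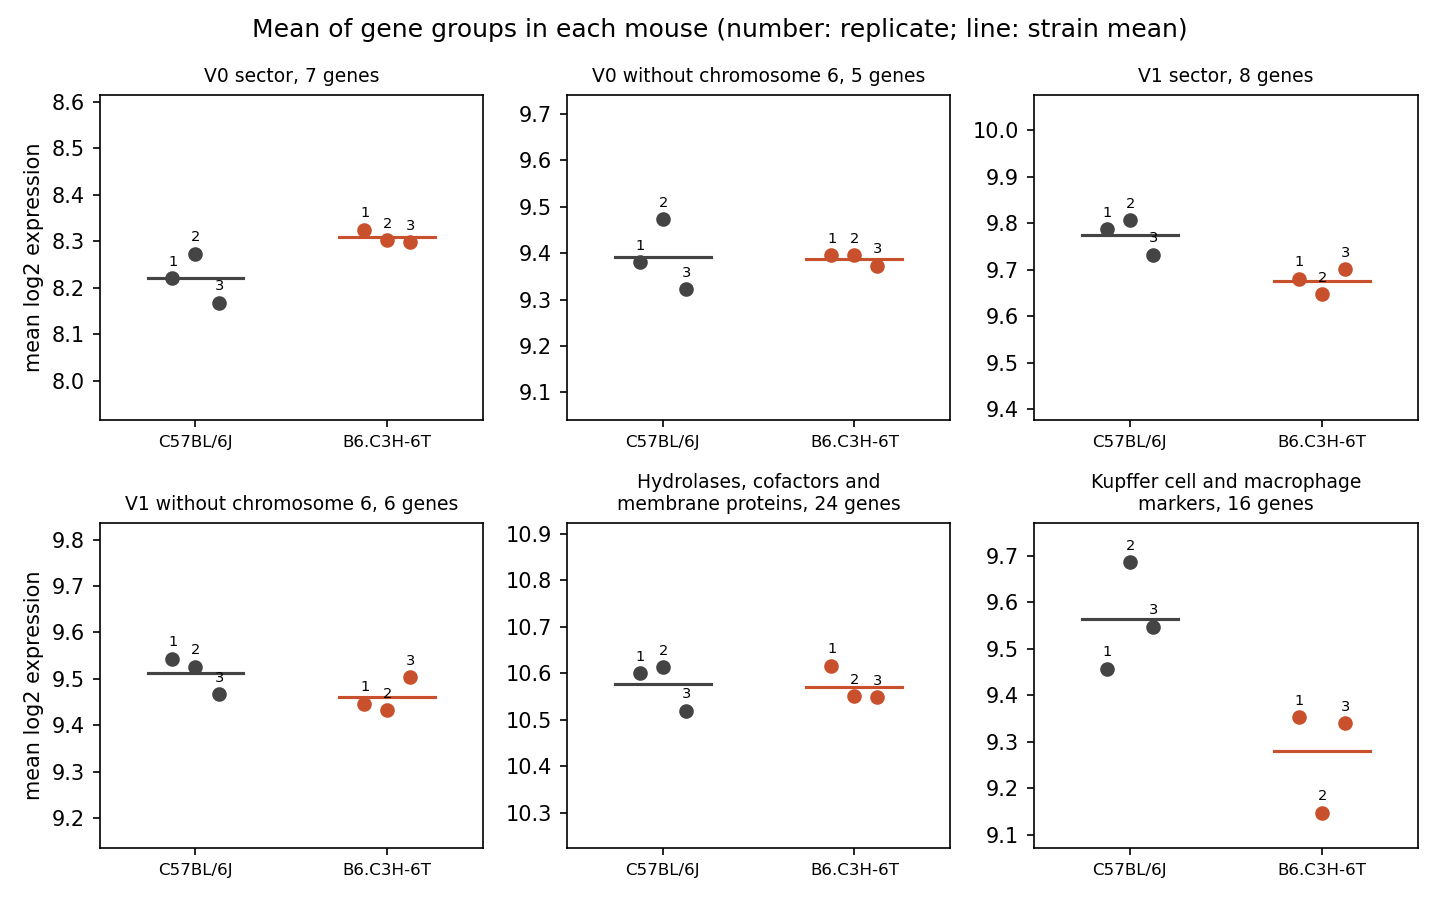
Mean log2 expression of gene groups (vertical axes, each spanning the same 0.70 log2 units) in each mouse, with C57BL/6J in grey, B6.C3H-6T in orange and lines for strain means. The V0 group is higher and the V1 group lower in B6.C3H-6T, both overlap once chromosome 6 genes are left out, and the macrophage markers are lower in every B6.C3H-6T mouse.

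The 4 V-ATPase genes of chromosome 6 did not share a direction, and neither did the genes next to them. Atp6v1e1 lies between Slc25a18, at 0.15 ± 0.07, and Bcl2l13, at -0.12 ± 0.07. The next gene in order is Bid, of the apoptosis pathway, which fell by 1.63 ± 0.14 (limma adjusted p = 0.00315). On the other side Hdhd5 was at 0.31 ± 0.07 (adjusted p = 0.212) and Cecr2 at 0.24 ± 0.12. The 3 nearest genes on each side of Atp6v0e2 ran from -0.30 ± 0.11 for Zfp467 to 0.16 ± 0.07 for its direct neighbour Zfp862-ps. Around Atp6v0a4 they ran from -0.26 ± 0.12 for Trim24 to 0.43 ± 0.13 for Akr1d1, a steroid reductase gene of bile acid synthesis. Around Atp6v1f all 6 were between -0.09 and 0.16. Of all 992 tested genes on chromosome 6, 15.1% had an unadjusted p under 0.05, against 3 of these 4.

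**Figure D4:**
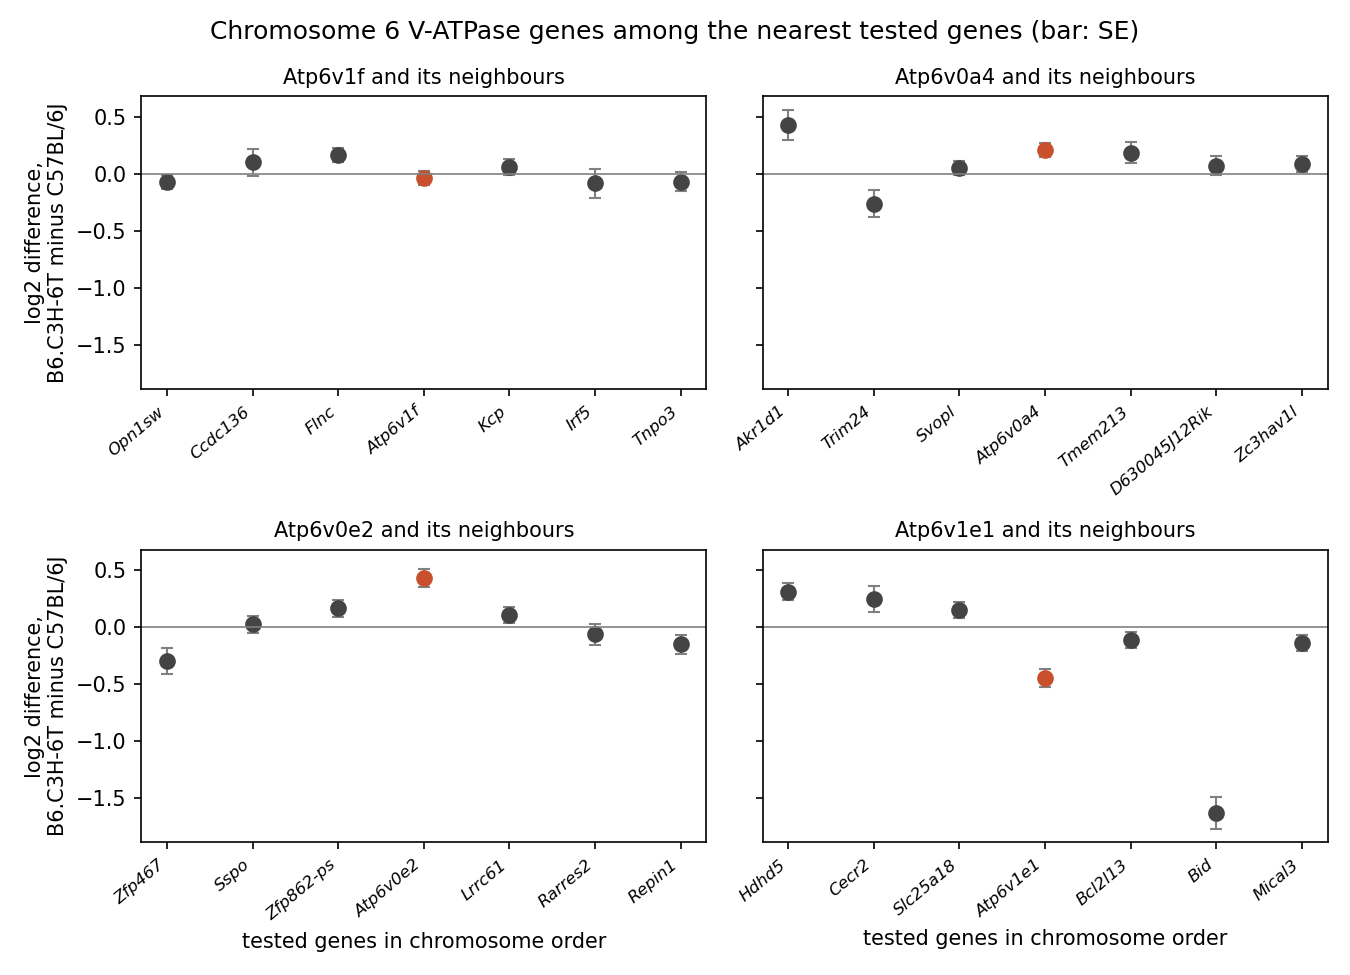
Differences between the strains (vertical axes, log2, with SE bars) of the 4 V-ATPase genes on chromosome 6 (orange) and of the 3 nearest tested genes on each side (grey), in chromosome order. Atp6v1e1 at -0.45 lies near Bid at -1.63 but between neighbours of opposite sign, and Atp6v0e2 at 0.43 is the highest of its stretch.

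Stretches upstream of these 2 genes are given since they had the smallest p values of the set. Both are read from RefSeq, build GRCm38.p6, which is the C57BL/6J genome, as the 120 bases before the start of the gene. Neither promoter window, of 250 bases before to 50 after the start, holds CACGTG. Capitals mark CCAAT or its complement ATTGG, a common promoter element found on one strand or the other in the windows of 13 of the 35 genes of the set that have one (37.1%), against 41.1% of all genes with a window. This motif was chosen after the sequences were seen. It starts 86 bases before the start of Atp6v1e1 and 45 before that of Atp6v0e2.
Atp6v1e1 (chr6:120822699-120822818, minus strand): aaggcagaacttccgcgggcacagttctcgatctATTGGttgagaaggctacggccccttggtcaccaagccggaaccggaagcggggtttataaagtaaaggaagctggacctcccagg
Atp6v0e2 (chr6:48537449-48537568, plus strand): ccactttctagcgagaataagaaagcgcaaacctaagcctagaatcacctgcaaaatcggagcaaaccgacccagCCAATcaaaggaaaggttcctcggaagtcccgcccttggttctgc

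Among the hydrolases, the cysteine proteases of the cathepsin family differed in both directions. Ctsl, which encodes cathepsin L, read 12.59, 12.59 and 12.48 in C57BL/6J and 12.82, 12.81 and 12.70 in B6.C3H-6T. All congenic mice were higher, and the difference was 0.22 ± 0.07 (unadjusted p = 0.00987, adjusted p = 0.290). The other probe set of Ctsl was at 0.05 ± 0.09 with overlap, and the mean of both gave 0.14. Ctsb, which encodes cathepsin B, read 12.48, 12.48 and 12.33 against 12.65, 12.58 and 12.58, also without overlap. It differed by 0.17 ± 0.07 (unadjusted p = 0.0364), and all 4 of its other probe sets were higher, by 0.06 to 0.18. Ctsc, which encodes the dipeptidyl peptidase that activates granule proteases of immune cells, read 11.80, 11.85 and 11.51 against 11.63, 11.08 and 11.40. The groups overlapped, since C57BL/6J replicate 3 was low and B6.C3H-6T replicate 1 high, and the difference was -0.35 ± 0.14 (unadjusted p = 0.0340, adjusted p = 0.379). Without 1 array it ran from -0.48 to -0.20, the latter without B6.C3H-6T replicate 2.

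The usual marker proteases of lysosomes differed little. Ctsd, which encodes the aspartic protease cathepsin D, read 11.19, 11.26 and 11.13 in C57BL/6J and 11.28, 11.35 and 11.23 in B6.C3H-6T. These ranges overlapped and the difference was 0.10 ± 0.07, with a 95% interval from -0.06 to 0.25. Ctsa, Ctsz and Tpp1 were between -0.09 and -0.08, and Ctsh was at 0.01 ± 0.08.

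Gm2a, which encodes the activator protein that presents gangliosides to hexosaminidase, read 10.85, 10.73 and 10.78 in C57BL/6J and 11.00, 11.12 and 10.98 in B6.C3H-6T. Every congenic mouse was above every control, by a mean of 0.25 ± 0.07 (unadjusted p = 0.00572, adjusted p = 0.265). A further bright probe set gave 0.23 ± 0.09, and the dim one -0.0056 ± 0.06. The mean of all 3 probe sets gave 0.16. Hexa, for the alpha chain of the enzyme that this activator serves, was at -0.04 ± 0.07. Psap, the precursor of the saposin activators, was at -0.10 ± 0.08 and Grn, which encodes progranulin, at -0.03 ± 0.07.

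No glycosidase or lipid hydrolase of the set had an unadjusted p under 0.05. Gaa, which encodes acid alpha-glucosidase and frees glucose from glycogen in lysosomes, read 10.03, 10.02 and 10.01 in C57BL/6J and 9.97, 9.82 and 9.96 in B6.C3H-6T. The strains did not overlap, by a narrow margin, and the difference was -0.11 ± 0.07 (unadjusted p = 0.144). Its other probe set was at 0.04 ± 0.07. Gla, which encodes alpha-galactosidase, was at 0.18 ± 0.10 on a dim probe set, Gusb at 0.06 ± 0.11 and Glb1 at 0.04 ± 0.06. The lysosomal lipase gene Lipa was at -0.07 ± 0.07, the ceramidase gene Asah1 at -0.10 ± 0.09 and the sphingomyelinase gene Smpd1 at 0.04 ± 0.07.

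No membrane protein of the set had an unadjusted p under 0.05, and the 5 differences ran from -0.11 to 0.09. Lamp1, the gene of a major membrane glycoprotein, read 12.57, 12.63 and 12.46 in C57BL/6J and 12.68, 12.64 and 12.60 in B6.C3H-6T. The strains overlapped at a difference of 0.09 ± 0.07, with a 95% interval from -0.07 to 0.25. Lamp2 was at 0.04 ± 0.07 and Scarb2, the receptor that carries glucocerebrosidase to lysosomes, at -0.11 ± 0.07. The calcium channel gene Mcoln1 was at -0.09 ± 0.08 and Cln3 at -0.09 ± 0.07. The other probe set of Cln3 had the opposite sign, at 0.16 ± 0.07 without overlap. Over the 30 genes of the set at an unadjusted p of 0.05 or more, the 95% intervals reached down to -0.33 and up to 0.41. The lower of these bounds is that of Atp6v1b2 and the upper that of Gla, and each gene has its own interval. A difference inside the interval of a gene was not excluded for it with 3 mice per strain.

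**Figure D5:**
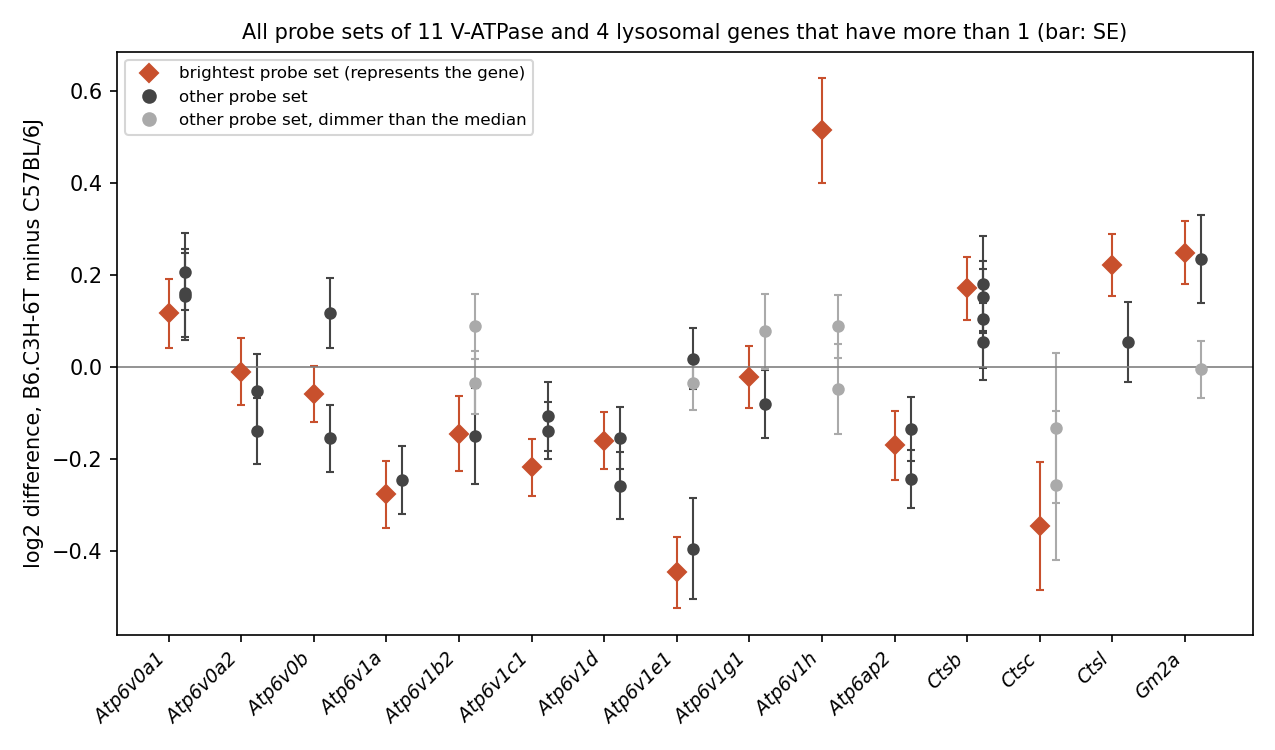
Differences between the strains (vertical axis, log2, with SE bars) for every probe set of 11 V-ATPase genes and 4 lysosomal genes that have more than 1, with the probe set that represents the gene in orange. The probe sets of Atp6v1a, Atp6v1c1, Atp6v1d, Atp6ap2 and Ctsb lie on one side of 0, while those of Atp6v1e1, Atp6v1h and Gm2a include dim ones close to 0.

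Over all 30 genes with further probe sets, 42 of 55 further probe sets had the sign of the one that represented the gene. The 7 of them with an unadjusted p under 0.05 all had that sign. They belonged to Atp6v1d, with 2, and to Atp6v0a1, Atp6v1a, Atp6v1e1, Atp6ap2 and Gm2a, with 1 each.

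The regulator Tfeb read 8.29, 8.21 and 8.23 in C57BL/6J and 8.09, 8.18 and 8.40 in B6.C3H-6T. The congenic mice lay on both sides of the controls, and the difference was -0.02 ± 0.09 (unadjusted p = 0.811, 95% interval from -0.22 to 0.17). The array reads only the transcript, whereas TFEB is known to be controlled largely by its entry into the nucleus.

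Promoter windows of that size were found in RefSeq for 35 of the 43 genes. CACGTG was present in those of 13 genes (37.1%), against 8.09% of all genes with a window. The longer palindrome TCACGTGA was present in 8 (22.9%), against 1.12% of all genes. Every match of the longer motif is also one of the shorter, and both read the same on either strand. V-ATPase genes held CACGTG in 4 of 13 cases and other genes of the set in 9 of 22. The sites shown are those of V-ATPase genes and of the best-known lysosomal genes among the 8 with TCACGTGA, and 1 of 4 in Lamp1, each with 12 bases on either side and CACGTG in capitals (GRCm38.p6, 5′ to 3′ on the strand of the gene).
Atp6v0d1 (chr8:105566050-105566079, minus strand): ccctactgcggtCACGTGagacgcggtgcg
Atp6v0e (chr17:26676387-26676416, plus strand): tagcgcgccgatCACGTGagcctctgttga
Atp6v1a (chr16:44139373-44139402, minus strand): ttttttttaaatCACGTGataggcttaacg
Cln3 (chr7:126583340-126583369, minus strand): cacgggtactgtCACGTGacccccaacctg
Ctsd (chr7:142387908-142387937, minus strand): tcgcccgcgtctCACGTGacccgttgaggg
Mcoln1 (chr8:3500462-3500491, plus strand): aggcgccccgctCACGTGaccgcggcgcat
Lamp1 (chr8:13159134-13159163, plus strand): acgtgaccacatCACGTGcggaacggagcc

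These sites lay close to the start of the gene in most cases, 3 bases before it in Atp6v0d1, 15 in Lamp1, 45 in Mcoln1, 98 in Ctsd, 121 in Cln3 and 131 in Atp6v1a. Differences between the strains went with the motif in no clear way. The 13 genes with CACGTG had a median of -0.06, from -0.28 for Atp6v1a to 0.22 for Ctsl, with 2 at an unadjusted p under 0.05. The 21 tested genes with a window but no match had a median of -0.04, with 7 at that p. A match is a string of letters and not a measured binding site.

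Of 16 tested markers of Kupffer cells and macrophages 15 were lower in B6.C3H-6T, 12 of them at an unadjusted p under 0.05. Over all genes 43.9% were lower, and 5.82% were lower at that p. The 1 marker that was not lower was Mpeg1, at 0.0014 ± 0.07. None of the 16 passed over all genes (limma). All 16 were brighter than the median probe set. Their mean was 9.46, 9.69 and 9.55 in C57BL/6J and 9.35, 9.15 and 9.34 in B6.C3H-6T, a difference of -0.28 without overlap. Of the defining markers, Timd4 was at -0.47 ± 0.11, Adgre1 at -0.29 ± 0.11 and Clec4f, on chromosome 6, at -0.26 ± 0.11. B6.C3H-6T replicate 2 was the lowest of its strain in the mean of these markers, but the highest in Marco and Mpeg1. Of the 6 lower genes of the set at an unadjusted p under 0.05, it was the lowest for 3 (Ctsc, Atp6v1a and Atp6v1d). It was not the lowest for Atp6v1e1, Atp6v1c1 or Atp6ap2. Over all 42 genes of the set it was the lowest of its strain for 15, and replicate 3 for 19. Cd68, a lysosomal gene known from macrophages, was at -0.28 ± 0.09 and the leukocyte gene Laptm5 at -0.18 ± 0.07. They were the 2 at an unadjusted p under 0.05 of 27 other membrane and transport genes of the lysosome, of which 17 were lower and 10 higher. The part of macrophage RNA in the values of these lysosomal genes was not tested. Of the 42 genes of the set 26 were lower and 16 higher, with Ctsl, Ctsb, Gm2a and Atp6v1h among the higher ones. The mean of the hepatocyte markers differed by 0.10, but their median only by 0.025, against 0.017 over all genes. Of these markers 7 of 9 were higher, 2 of them at an unadjusted p under 0.05 (Tat at 0.42 ± 0.09 and Cps1 at 0.26 ± 0.07). Over all genes 10204 of 18194 were higher, and 6.36% were higher at that p. The part of hepatocyte RNA in the values of the higher genes was not tested. Endothelial markers (10 tested) had a median of -0.06, stellate cell markers (9 tested) one of -0.00049, and none of either list had an unadjusted p under 0.05.

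The wider pathway was followed in 5 further lists, with 112 genes tested. None passed over all genes in limma, and 9 (8.04%) had an unadjusted p under 0.05, 2 higher and 7 lower, against 12.2% of all genes. The sharpest difference was that of Manba, the beta-mannosidase gene, which read 8.11, 8.24 and 8.04 in C57BL/6J and 7.68, 7.65 and 7.72 in B6.C3H-6T. All congenic mice were lower, by -0.44 ± 0.07 (unadjusted p = 0.000144, adjusted p = 0.101). Among other hydrolases, with 2 of 31 at an unadjusted p under 0.05, the nuclease gene Dnase2a was at -0.50 ± 0.21 with overlap, the sialidase gene Neu1 at -0.16 ± 0.07 and Naglu, of heparan sulfate breakdown, at 0.18 ± 0.08.

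Other isoforms and helpers of the V-ATPase had 1 of 14 genes at that p (7.14%, against 12.2% of all genes), Ncoa7 at -0.19 ± 0.08. Rogdi and Dmxl1, which belong to the complex that joins the V0 and V1 sectors, were at 0.14 ± 0.06 and -0.19 ± 0.11. Atp6v1e2, the paralog of Atp6v1e1 known from testis, was at 0.12 ± 0.07. Lysosomal membrane and transport genes had 2 of 27 (7.41%), Cd68 and Laptm5. The nucleoside transporter gene Slc29a3 and the channel gene Tpcn1 were at -0.18 ± 0.09 and -0.16 ± 0.08. Of the delivery genes, which sort enzymes to lysosomes and tether late endosomes, 15 of 20 were lower (75%), with a median of -0.03. Over all genes 43.9% were lower, and 49.2% of those brighter than the median probe set, as all 20 were. Vps41 at -0.18 ± 0.07 was the 1 gene of 20 at an unadjusted p under 0.05 (5%, against 12.2% of all genes). Vps16 and Vps39 of the same tethering complex were at -0.11 ± 0.07 and -0.10 ± 0.06, and the mannose 6-phosphate receptor gene M6pr at 0.11 ± 0.08.

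The nutrient sensing list holds the relatives and regulators of TFEB and the platform for mTORC1 on lysosomes. It had 3 of 20 genes at an unadjusted p under 0.05 (15%, near the 12.2% of all genes). Mtor, the kinase that keeps TFEB in the cytosol, read 9.17, 9.50 and 9.44 in C57BL/6J and 9.23, 8.88 and 8.96 in B6.C3H-6T. The strains overlapped in 1 pair of mice, and the difference was -0.35 ± 0.11 (unadjusted p = 0.0122, adjusted p = 0.304). Fnip2, a partner of folliculin, was higher in every congenic mouse, by 0.23 ± 0.09, and the coactivator gene Ppargc1a by 0.23 ± 0.09. Rraga, which encodes a Rag GTPase, was lower in every congenic mouse, by -0.17 ± 0.08.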

How the data were processed

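Per the submitters' processing notes, the authors made the deposited log2 values, 1 per probe set and array, with RMA from the affy package, and images were quantified with GCOS 1.2 per the labels. Versions of RMA and affy are not given in the sources used here. RMA sets the arrays to a common distribution, so a shift of all genes would not show. Priming was from the poly(A) tail, so probe sets read mainly the 3′ end of a transcript. Of the probe sets, 64 controls were left out, and 34945 were paired with 1 gene, 932 with several and 9160 with none by the platform annotation, with symbols updated through gene identifiers to the RefSeq table of GRCm38.p6.

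The comparison was a limma fit (version 3.58.1, R 4.3.3; lmFit, then eBayes) of 3 against 3 mice without covariates, on 1 probe set per gene, with no filter on dim probe sets, and p-values were adjusted over 18194 genes by Benjamini-Hochberg. Intervals are 95% intervals of that fit. Mice are separate animals per the series' design, no batch is given, and the number of arrays limits the precision. The fit was tested on simulated data with shifts larger than nearly all differences of the set. That test does not show how well differences as small as these are found. The genes of the set, the lists and the rule for named genes were chosen with earlier results of these data known. The rule gives values per mouse for genes at an unadjusted p under 0.05 or without overlap, for those on chromosome 6, and for Tfeb, Lamp1 and Ctsd, names up to 4 genes of smallest p in each pathway list, and names the 3 nearest tested genes on each side of those on chromosome 6. Marker lists for cholangiocytes, adipocytes and exocrine pancreas had medians of 0.04, 0.05 and 0.14, with 0, 0 and 1 gene at an unadjusted p under 0.05 in limma, and none called. Of the 10 hepatocyte markers 9 were tested, with a median of 0.02 and 2 higher at that p, against 6.36% of all genes. Of the genes in the other lists 17 were not analysed here. Array centring, quantile normalization, the filter, the choice of probe set, the variance model and the arrays left out were varied.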

Additional observations from a re-analysis of the deposited data

How the results depend on the processing

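No gene of the set passed over all genes in limma under any of the 15 alternatives, and the smallest adjusted p was 0.0927. Over all genes 13 passed, against 0 in a linear fit without moderated variances (where 1746 had an unadjusted p under 0.05) and 6 to 18 with 1 array left out, with 6 without C57BL/6J replicate 2 and 7 without C57BL/6J replicate 3. Genes of the set at an unadjusted p under 0.05 numbered 12 and, at the fewest, 8, or 19.0%, against 12.2% of all genes when the probe set of median p was used, 7.59% when B6.C3H-6T replicate 2 was left out and 13.3% when replicate 3 of that strain was. Of 42 genes 31 kept their sign in all alternatives. Signs turned for Atp6v0a2 (0.022) and Tfeb (0.017) after quantile normalization, for Ctsh after that (-0.039) and after centring (-0.015), and for Cln3 with the mean of probe sets (0.036). With the probe set of median p they turned for Atp6v0b (0.12), Atp6v1g1 (0.078), Cln3 (0.16), Gla (-0.079) and Gusb (-0.050). With 1 array left out the ranges that crossed 0 were -0.051 to 0.045 for Atp6v0a2, -0.012 to 0.087 for Atp6v0d1, -0.047 to 0.026 for Atp6v1g1, -0.067 to 0.064 for Ctsh, -0.054 to 0.0025 for Grn, -0.044 to 0.15 for Gusb, -0.0046 to 0.064 for Lamp2 and -0.11 to 0.044 for Tfeb. The median of the other lysosomal genes was 0.0015 with the mean of probe sets. The causes were not tested. Adjustment over all probe sets and sector means without chromosome 6 genes were chosen after seeing the data. No paired analysis was possible because the labels give no replicate numbers that the strains share.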
